A study of Gossypium hirsutum with 18 samples.

Results

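The response of upland cotton (Gossypium hirsutum) to the treatment coded SAS was compared between 2 organs of the same kind of plant, root and leaf. For each gene the log2 change of SAS over the untreated control CK was estimated in root and in leaf, and the difference between both changes, root minus leaf, was tested as an interaction. Genes were included when their deposited FPKM (fragments scaled by gene length and by library total) reached 1 in 3 or more of the 6 root libraries and in 3 or more of the 6 leaf libraries. This rule kept 34801 of the 70478 genes in the table, over 12 of the 18 libraries of the series.

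CK plants received no treatment according to the labels, and SAS plants received an alkaline solution. Seedlings had been grown in soil and were then placed in the solutions, for which the protocol names NaHCO3 at 125 mM and NaOH of equal pH, with a treatment of 12 h. The labels do not say which of these is SAS and which is AS, the other treatment of the series, and they do not say which solution, if any, the CK plants stood in. Each of the 4 groups used here, CK root, SAS root, CK leaf and SAS leaf, had 3 libraries of poly(A) RNA read in pairs on an Illumina HiSeq instrument. The labels do not tell whether libraries within a group were taken from different plants, so the p-values measure only the spread between libraries, which may be technical.

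As background, alkaline soil solutions limit the supply of phosphate, iron and other nutrients at the root surface and disturb the proton gradient that drives uptake, and the root meets the solution directly while the leaf is reached through the xylem. Leaves carry photosynthesis, whose transcripts are often lowered under stress, and roots rely on sugar imported from the shoot. Upland cotton is an allotetraploid with an A and a D subgenome, so most genes exist as near-identical copies. How reads shared by copies were assigned was not stated in the labels or the file, so the split between 2 copies of a gene is uncertain.

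The 12 libraries held 46345805 to 65822432 counts, of which 86.4% to 95.1% fell in the tested genes. All 127 leaf markers in the table summed to 18838 to 23564 CPM in CK leaf libraries and to 406 to 425 CPM in CK root libraries, and all 75 root markers to 1623 to 2446 CPM in CK root and 124 to 136 CPM in CK leaf, so each organ carried its own markers. CPM here is the count scaled to 1e6 counts in tested genes after TMM scaling, which assumes that most genes do not change. The TMM factors of the SAS root libraries, 0.646 to 0.688, were the lowest of the 4 groups, against 0.956 to 1.06 in CK root, 1.18 to 1.19 in CK leaf and 1.23 to 1.29 in SAS leaf. The first principal component of each organ separated SAS from CK, with 82.2% of the variance in root and 83.6% in leaf, and SAS leaf library 2 lay furthest from the CK leaves. In bulk RNA, fewer cells of a type and less RNA per cell cannot be told apart.

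SAS changed more genes, and by more, in root than in leaf, and the answers of the organs differed for 47.6% of the tested genes. With edgeR's quasi-likelihood test and Benjamini-Hochberg adjusted p under 0.05, the interaction was called for 16580 of the 34801 genes. The root change lay above the leaf change in 8470 of them (24.3%) and below it in 8110 (23.3%). Within root, 22477 genes (64.6%) were called, 11251 higher in SAS (32.3%) and 11226 lower (32.3%). Within leaf, 13546 genes (38.9%) were called, 6817 higher (19.6%) and 6729 lower (19.3%). The median size of the log2 change was 0.78 in root and 0.44 in leaf. The 9528 genes called in both organs made up 42.4% of the root calls and 70.3% of the leaf calls, and 6947 of them (72.9%) had the same sign. Across the 34801 genes the root and leaf log2 changes had a Pearson correlation of 0.35 and a Spearman correlation of 0.32, given as a description, since genes share libraries and are not independent.

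Genes that answered SAS in opposite directions, called in root, in leaf and for the interaction, numbered 2581, or 7.42% of the tested genes. Of these, 1546 rose in root and fell in leaf (4.44%), and 1035 fell in root and rose in leaf (2.97%). In 901 of the 2581 both changes were at least 2-fold, 556 with the rise in root and 345 with the rise in leaf. The SAS and CK libraries did not overlap in either organ for 2425 of the 2581, against 42.7% of all tested genes. The 2581 were called in both organs on these same libraries, so this separation largely follows from the choice.

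Genes called in 1 organ alone and for the interaction were more frequent. Root-only responses numbered 8764 (25.2%), with 4293 higher (12.3%) and 4471 lower (12.8%) in SAS roots. For 6846 of them (78.1%) the 95% interval of the leaf log2 change lay inside -1 to 1, so that a change of 2-fold or more in leaf lay outside that interval. Leaf-only responses numbered 2372 (6.82%), 1253 higher (3.6%) and 1119 lower (3.22%), and for 1729 of them (72.9%) the root interval lay inside the same bounds. The leaf-only count was 1580 when SAS leaf library 2 was left out. Among genes that moved the same way in both organs by different amounts, 1212 rose more in root (3.48%), 375 rose more in leaf (1.08%), 790 fell more in root (2.27%) and 69 fell more in leaf (0.198%). The remaining 417 genes (1.2%) passed for the interaction but in neither organ alone.

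**Figure D1:**
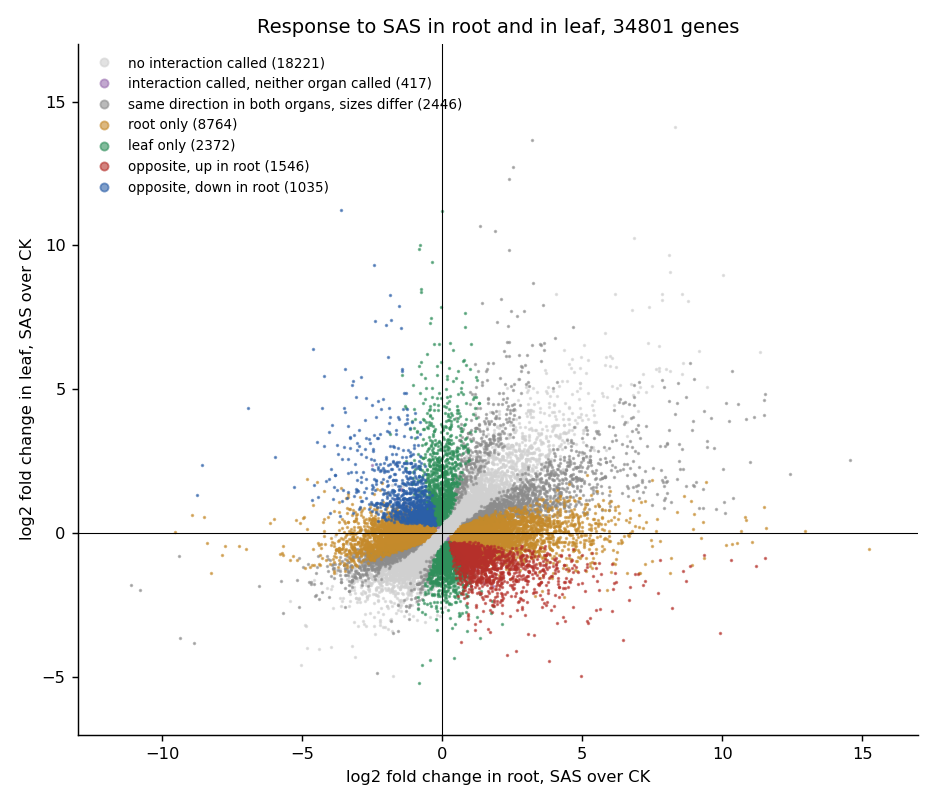
Log2 fold change of SAS over CK in root (x axis) against that in leaf (y axis) for the 34801 tested genes, 1 point a gene, coloured by class of response. Opposite responses fill the lower right (1546 genes) and upper left (1035 genes) of the plot, root-only responses lie along the horizontal axis and leaf-only responses along the vertical axis. Genes with a group at 0 counts are drawn at their fitted value, which is no bound.

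These directions depend on how the libraries are scaled, because the SAS root libraries had low TMM factors. With library totals alone the median root change over all genes moved from -0.03 to -0.61 log2 and the median interaction from -0.03 to -0.72 log2, and the share of calls with the root change above the leaf change moved from 51.1% to 20.4%. The opposite responses were then 3332, with 682 up in root and 2650 down in root, and the root-only responses 12440, with 2074 higher and 10366 lower. With limma on log2(FPKM + 1) and log2(FPKM + 0.1), whose deposited values rest on library totals, that share was 19.6% and 18.1%, and the opposite responses were 686 up and 3712 down in root and 605 up and 3402 down in root. With upper-quartile factors the median was -0.31 log2, the share 35.4%, and the opposite responses 2718, with 1150 up in root. Under all 4 scalings compared, 1693 genes were opposite in the same direction, 682 of them up and 1011 down in root. Root-only genes that held their class under all 4 were 1911 higher and 4185 lower. Counts, medians and summed levels of lists cover their tested members and are on the TMM scale unless another is named, where the median over all tested genes was -0.03 in root, -0.06 in leaf and -0.03 for the interaction. Under library totals 12.5% of all tested genes were called with root above leaf and 48.7% below (61.2% in all). List counts under library totals stand against these shares. The filter itself shapes these counts: 602 of the tested genes passed it in root through SAS libraries alone and 2478 through CK libraries alone, and 847 and 142 did so in leaf, so that their direction in that organ was built into their inclusion.

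Most tested photosystem core subunit genes rose in SAS roots and fell in SAS leaves, 28 of 41 in root and 34 of 41 in leaf, and the median interaction of the list was 2.40 log2. Of 102 photosystem core subunit genes in the table, 41 passed the filter in both organs, and 31 of these were called with the root change above the leaf change and 1 below it, 78.0% called against 47.6% of all tested genes. Opposite responses, up in root and down in leaf, accounted for 22 of the 41, and 0 went the other way. The median log2 change was 1.05 in root and -1.39 in leaf. With library totals alone the root median was 0.48 log2 and the median interaction 1.73 log2, with 28 called above and 1 below. Of the 22, 11 held their opposite class under all 4 scalings. Of the 41, 5 passed the root filter through SAS libraries alone, so a rise in root was built into their inclusion.

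A gene described as a photosystem II PsbP family protein (Gh_D11G2735), an oxygen-evolving complex subunit, had 0.708, 0.309 and 0.286 CPM in CK roots and 8.74, 10.6 and 12.7 CPM in SAS roots. In leaves it had 13.7, 12.8 and 12.1 CPM in CK and 5.23, 4.65 and 6.89 CPM in SAS. SAS and CK did not overlap in either organ, and in SAS the root libraries lay above the leaf libraries. The log2 changes were 4.62 ± 0.32 (SE) in root and -1.20 ± 0.26 in leaf, and the interaction was 5.82 ± 0.41 (edgeR adjusted p = 2.03e-06). Its root filter was passed through SAS libraries alone.

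A light-harvesting complex gene of photosystem II (Gh_D01G2232), which encodes an antenna protein that binds chlorophyll, had 8.06, 7.54 and 8.12 CPM in CK roots and 17.6, 25.1 and 25.6 CPM in SAS roots. In leaves it had 463, 412 and 330 CPM in CK and 175, 155 and 243 CPM in SAS. The groups did not overlap in either organ, although the SAS root level stayed far below the SAS leaf level. Its interaction was 2.60 ± 0.30 log2 (edgeR adjusted p = 4.20e-05). Of 56 antenna genes, 4 passed the filter, 2 of them through SAS roots alone, and 3 were opposite. The median interaction of these 4 antenna genes, 4.29 log2, was 2.69 log2 without the 2 that passed through SAS roots alone and 7.2 log2 without CK root library 3.

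Glutamyl-tRNA reductase, the first committed enzyme of chlorophyll and haem synthesis, moved in the same direction. The copy Gh_D05G3825 had 3.88, 3.60 and 3.74 CPM in CK roots and 9.41, 14.7 and 10.6 CPM in SAS roots, and 26.8, 27.8 and 22.7 CPM in CK leaves and 17.3, 14.2 and 18 CPM in SAS leaves, with no overlap in either organ. Its interaction was 2.27 ± 0.25 log2 (edgeR adjusted p = 2.76e-05). Of 23 chlorophyll synthesis genes tested, 13 (56.5%) were called, all with the root change above the leaf change, and 16 fell in leaf while 0 rose there. The median log2 change was 0.36 in root and -0.77 in leaf, and 4 were opposite. With library totals alone the root median of this list was -0.22 log2.

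Carbon fixation genes of the Calvin cycle and rubisco small subunit split by where they were expressed. Of 14 tested, 9 were called with root above leaf and 2 below, 5 were opposite, and the medians were 1.02 log2 in root and -1.24 log2 in leaf. Of the 5 opposite genes, 1 held that class under all 4 scalings, and with library totals alone 5 of the 14 were called above and 2 below. The median interaction of the list, 2.31 log2, was 1.38 log2 without SAS root library 2. The 2 below were rubisco small subunit copies found mainly in root. Gh_A03G0182 had 174, 179 and 174 CPM in CK roots, 18.9, 19.5 and 34.6 CPM in SAS roots, and 2.19 to 3.42 CPM over all 6 leaf libraries. It fell by 2.85 ± 0.23 log2 in root (edgeR adjusted p = 1.30e-06), while the leaf change was -0.20 log2 with a 95% interval from -0.71 to 0.30. The copy Gh_D03G1402 fell from 151 ± 1 (SD, n = 3) to 20.8 ± 6.13 CPM in root.

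Glutamine synthetase 2 (Gh_D02G0311), the plastid enzyme that fixes ammonium in leaves, had 2.19, 4.04 and 3.37 CPM in CK roots and 15.6, 16.6 and 8.03 CPM in SAS roots. It had 1065, 1002 and 924 CPM in CK leaves and 331, 259 and 434 CPM in SAS leaves. The groups were apart in both organs, and the interaction was 3.61 ± 0.44 log2 (edgeR adjusted p = 6.08e-05). The second gene of the same description was also opposite.

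The opposite genes of these lists were lower in root than in leaf in CK, and in SAS the share that root reached differed between genes. This did not hold for all tested members. In CK the root level exceeded 50% of the leaf level for 2 of 41 photosystem, 2 of 14 Calvin cycle and 4 of 23 chlorophyll synthesis genes. The 23 chlorophyll synthesis genes summed to 1316 ± 181 CPM (SD, n = 3) in CK roots and 1045 ± 111 CPM in CK leaves. Over the 22 opposite photosystem genes the CK root level was 0.0974% to 7.06% of the CK leaf level, with a median of 0.559%, and the SAS root level was 1.10% to 191% of the SAS leaf level, with a median of 5.50%. For 12 of the 22 the SAS share exceeded 5%, and for 2 it exceeded 50%. The 10 most abundant leaf markers were 1.67 to 3.52 times as high in SAS as in CK roots on the TMM scale, where SAS roots had the lowest factors. The CK root spread was wide for the rubisco copies among them, such as 6.27 ± 4.57 CPM (SD, n = 3) for Gh_A07G2172. It was narrow for others, such as 7.91 ± 0.32 CPM for Gh_D01G2232. For the 5 opposite Calvin cycle genes the root share was 0.912% to 1.39% in SAS, and for the 4 opposite chlorophyll synthesis genes 59.1% to 74.0%. Of 35 tested leaf markers, 25 rose and 4 fell in root, yet the sum of these 35 was 195 to 251 CPM in SAS roots and 390 to 410 CPM in CK roots, the rubisco copies of root making up the larger share of it in CK. The part of any leaf material in these root values was not tested.

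**Figure D2:**
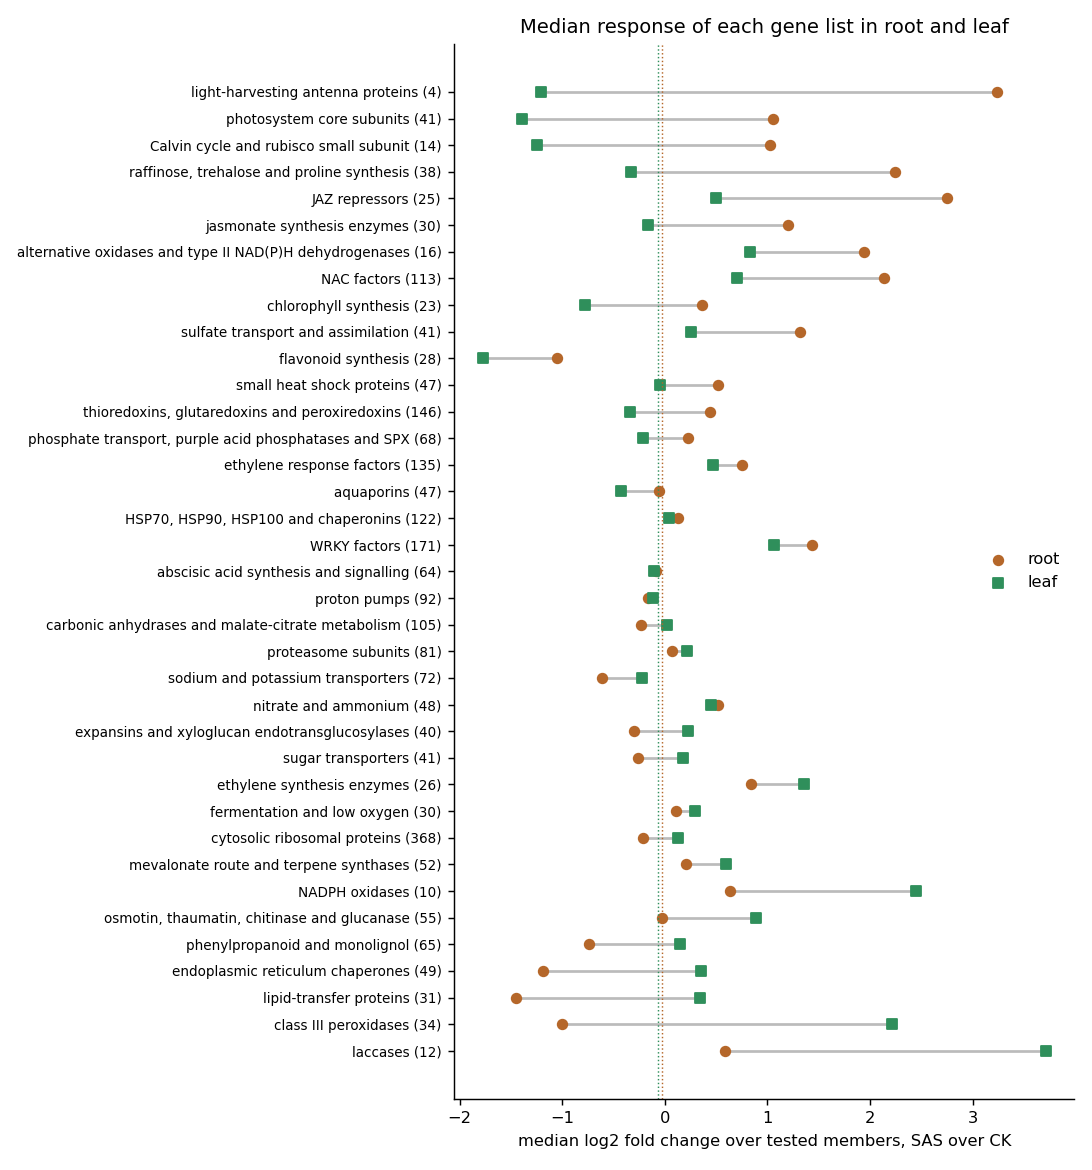
Median log2 change of SAS over CK in root and in leaf (x axis) for the tested members of each gene list, with the number of tested members in brackets and the median over all 34801 genes for reference. Lists are ordered by median interaction, from antenna proteins (root 3.24, leaf -1.20) to laccases (root 0.58, leaf 3.72). No error is drawn, since members of a list are not replicates.

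Genes for the alternative respiratory path had a summed level far higher in SAS than in CK roots, while the number of members leaning to root depended on the scaling. Alternative oxidase is a terminal oxidase of mitochondria that bypasses the proton-pumping complexes, and type II NAD(P)H dehydrogenases feed that route from the NADH side. Summed over the 16 tested of 21 genes, their level went from 526 ± 96.7 (SD, n = 3) to 11309 ± 1442 CPM in root and from 174 ± 1.81 to 540 ± 141 CPM in leaf. Of the 16, 9 were called with the root change above the leaf change and 2 below, 68.8% in all, with a median interaction of 1.04 log2. With library totals alone 5 were called above and 5 below with a median of 0.34 log2, and with upper-quartile factors 7 above and 5 below. On the TMM scale both organs rose with the larger rise in root for 5 members, and 0 were opposite.

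Alternative oxidase 2 (Gh_A03G1527) had 4.31, 6.07 and 3.69 CPM in CK roots and 904, 1250 and 1224 CPM in SAS roots. In leaves it had 26.5, 26.1 and 24.5 CPM in CK and 39.8, 57.0 and 46.7 CPM in SAS. CK leaves thus held more of it than CK roots and SAS roots far more than SAS leaves, with no overlap in either organ. The log2 change was 7.91 ± 0.30 in root and 0.90 ± 0.22 in leaf, and the interaction was 7.01 ± 0.34 (edgeR adjusted p = 2.37e-07).

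Compatible solutes and their sugar precursors followed a similar order. Genes of raffinose, trehalose and proline synthesis, which make osmolytes and the signalling sugar trehalose 6-phosphate, summed to 2017 ± 319 CPM in CK roots and 8744 ± 862 CPM in SAS roots, and to 1966 ± 89.8 and 1248 ± 145 CPM in CK and SAS leaves. Of 38 tested, 27 were called with root above leaf and 1 below, 73.7% in all. Of the 38, 5 passed the root filter through SAS libraries alone. Of the called genes, 8 were opposite, up in root and down in leaf, and the 8 held that class under all 4 scalings. In root 28 rose and 4 fell, while in leaf 10 rose and 14 fell.

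A raffinose synthase gene (Gh_A05G3108) had 0.622, 0.425 and 0.898 CPM in CK roots and 83.8, 258 and 128 CPM in SAS roots, against 6.10, 6.06 and 6.25 CPM in CK leaves and 13.1, 13.4 and 14.4 CPM in SAS leaves. Both organs rose without overlap. The interaction was 6.77 ± 0.53 log2 (edgeR adjusted p = 3.36e-06), and the gene passed the root filter through SAS libraries alone.

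Thioredoxins, glutaredoxins and peroxiredoxins, small proteins that reduce disulfides or peroxides, moved apart less evenly. Of 146 tested, 64 were called with root above leaf and 24 below, 60.3% in all, with medians of 0.44 log2 in root and -0.34 log2 in leaf. The opposite responses were 17 up in root and 4 down in root, of which 7 and 4 held under all 4 scalings. With library totals alone the median interaction of this list was -0.08 in place of 0.61 log2, and its root median -0.14 log2. Less the median interaction over all tested genes it was 0.64 log2 on both scales.

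Jasmonate genes were called with the root change above the leaf change more often than below it. Jasmonate is a lipid hormone of wounding and stress, made in steps that include allene oxide synthase and oxophytodienoate reductase, and JAZ proteins repress its targets and are themselves jasmonate induced. Of 30 synthesis genes tested, 15 were called with root above leaf and 3 below (60%), with 10 root-only rises and medians of 1.20 log2 in root and -0.17 log2 in leaf. Under library totals 13 were above and 6 below, and their root median was 0.61 log2. The summed level of the 30 synthesis genes differed little. It was 12191 ± 1907 and 12950 ± 524 CPM in CK and SAS roots and 896 ± 79.6 and 1050 ± 222 CPM in CK and SAS leaves. The libraries of both treatments overlapped in each organ. Of 25 JAZ genes, 16 were called above and 2 below (72.0%), with 10 root-only rises, and 14 above and 6 below under library totals. Summed JAZ levels were 866 ± 106 and 3663 ± 835 CPM in CK and SAS roots and 446 ± 35.3 and 410 ± 31.5 CPM in CK and SAS leaves.

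Allene oxide synthase (Gh_A05G2224) had 30.04, 43.8 and 43.3 CPM in CK roots and 256, 338 and 248 CPM in SAS roots. In leaves it had 15.8, 15.9 and 15.4 CPM in CK and 12.6, 17.1 and 12.1 CPM in SAS, which overlapped. The root rise was 2.85 ± 0.20 log2 and the leaf change was -0.17 log2 with a 95% interval from -0.59 to 0.25, so a 2-fold change in leaf lay outside it. The interaction was 3.02 ± 0.28 log2 (edgeR adjusted p = 8.76e-06).

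Other jasmonate genes turned in opposite directions. Oxophytodienoate reductase 3 (Gh_D05G0339) had 28.8, 28.6 and 34.5 CPM in CK roots and 78.4, 106 and 95.3 CPM in SAS roots, with 37.8, 43.1 and 43.4 CPM in CK leaves and 24.8, 29.2 and 23.5 CPM in SAS leaves. The gene described as JAZ protein 3 (Gh_D05G2975) had 1.01, 1.41 and 1.72 CPM in CK roots and 10.9, 14 and 9.23 CPM in SAS roots, with 69.0, 76.3 and 76.2 CPM in CK leaves and 29.4, 22.4 and 37.3 CPM in SAS leaves. Neither gene overlapped between treatments in either organ. The interaction was 2.29 ± 0.21 log2 for the former and 4.35 ± 0.32 log2 for the latter (edgeR adjusted p = 8.18e-06 and 2.63e-06). Of 5 tested genes with the latter description, 1 was opposite.

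Ethylene synthesis did not follow this order. Of 26 tested genes, 5 were called with root above leaf and 7 below, 46.2% in all and near the share of all genes, and 5 of the 7 fell in root and rose in leaf. Library totals gave 3 above and 14 below, and a median interaction of -1.04 in place of -0.36 log2. Among 12 genes described as ethylene-forming enzyme, the oxidase that makes ethylene from ACC, copies went both ways. Gh_D07G0842 had 129, 233 and 173 CPM in CK roots and 48.6, 61.2 and 48.7 CPM in SAS roots, with 14.4, 12.9 and 12.1 CPM in CK leaves and 79.8, 91.8 and 54.2 CPM in SAS leaves. Gh_D07G1899 had 2.06, 1.16 and 1.29 CPM in CK roots and 19.9, 30.1 and 17 CPM in SAS roots, with 5.12, 4.14 and 4.46 CPM in CK leaves and 1.10, 0.364 and 0.682 CPM in SAS leaves. The former had an interaction of -4.27 ± 0.34 log2 and the latter of 6.56 ± 0.52 log2 (edgeR adjusted p = 3.77e-06 and 3.55e-06).

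Of the transcription factors of stress families, NAC factors leaned to root, and 83 of 113 rose in root and 63 in leaf. Of 113 NAC genes tested, which include regulators of senescence and of xylem formation, 60 were called with root above leaf and 15 below (66.4%). In 29 both organs rose with the larger rise in root, and 24 were root-only rises. Under library totals 46 were called above and 33 below, and the median interaction was 0.33 in place of 1 log2. Of the 113, 10 passed the root filter through SAS libraries alone. The NAC sum was 3410 ± 394 and 19785 ± 1371 CPM in CK and SAS roots and 1723 ± 47.0 and 3345 ± 421 CPM in CK and SAS leaves. Xylem NAC domain 1 (Gh_D04G0278), in Arabidopsis a gene of xylem vessels that limits their differentiation, had 3.56, 6.57 and 4.78 CPM in CK roots and 68.5, 80.8 and 59.9 CPM in SAS roots, with 2.81, 2.48 and 1.52 CPM in CK leaves and 0.889, 0.629 and 0.783 CPM in SAS leaves. It rose in root and fell in leaf with no overlap, and its interaction was 5.37 ± 0.39 log2 (edgeR adjusted p = 2.16e-06).

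WRKY factors, regulators of defence and senescence, were called in both directions, in proportions that depended on the scaling. Of 171 tested, 59 had the root change above and 55 below the leaf change (66.7%), 33 rose in both organs with the larger rise in root and 20 with the larger rise in leaf. The median interaction was -0.01 log2. The counts became 42 above and 77 below, and the median -0.71 log2, with library totals alone, where the median over all tested genes was -0.72 log2. Of these 171 genes, 105 rose in root and 103 in leaf. Their sum was 7578 ± 1357 and 33145 ± 5627 CPM in CK and SAS roots and 2780 ± 185 and 4798 ± 771 CPM in CK and SAS leaves. Ethylene response factors had 45 above and 31 below of 135 tested (56.3%), and 26 above and 53 below with library totals alone. In root 72 of them rose and 25 fell, and in leaf 57 rose and 18 fell. Summed, they had 6226 ± 854 and 12884 ± 876 CPM in CK and SAS roots and 2708 ± 35.4 and 2821 ± 313 CPM in CK and SAS leaves. Passing through SAS libraries alone accounted for 14 of the 135 in root and 20 in leaf, and for 7 and 19 of the WRKY genes. In that family Gh_A02G0377, described as ethylene response factor 1, had 1.82, 2.18 and 2.71 CPM in CK roots and 59.2, 93.4 and 91.1 CPM in SAS roots, and 0.992 to 1.34 CPM in CK leaves and 1.57 to 2.38 CPM in SAS leaves. Gh_A12G1954, described as ethylene responsive element binding factor 5, had 55.0, 67.5 and 53.2 CPM in CK roots and 8.97, 15.7 and 7.44 CPM in SAS roots, and 1.73, 1.31 and 1.13 CPM in CK leaves and 5.75, 9.50 and 9.30 CPM in SAS leaves. The former rose in both organs and more in root, by 4.50 ± 0.33 log2, and the latter was opposite, at -5.01 ± 0.42 log2 (edgeR adjusted p = 2.44e-06 and 4.94e-06). Abscisic acid genes, of the main hormone of water deficit, had 18 above and 15 below of 64 tested (51.6%, near the 47.6% of all genes), with medians of -0.08 log2 in root and -0.10 log2 in leaf. Under library totals 12 were above and 32 below (18.75% and 50%, against 12.5% and 48.7% of all genes).

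Genes of wall oxidation and lignin stood on the other side, with median interactions of -3.09 log2 for laccases and -2.92 log2 for class III peroxidases. Class III peroxidases oxidise wall phenolics with hydrogen peroxide. Of 34 tested among 196 in the table, 23 were called with the root change below the leaf change and 3 above (76.5%), with medians of -1 log2 in root and 2.21 log2 in leaf. The 12 that were opposite all fell in root and rose in leaf and held that class under all 4 scalings. Of the 34, 6 passed the leaf filter through SAS libraries alone and 7 passed the root filter through CK libraries alone. In leaf 23 members rose and 4 fell, while the sum over the 34 was lower in SAS leaves: it was 4021 ± 365 and 2671 ± 319 CPM in CK and SAS roots and 3686 ± 348 and 2666 ± 156 CPM in CK and SAS leaves. A class III peroxidase gene (Gh_D10G1158) had 16.5, 18.7 and 19.8 CPM in CK roots and 0.728, 1.64 and 0.967 CPM in SAS roots, with 0.848, 1.62 and 0.962 CPM in CK leaves and 12.9, 15.4 and 11.1 CPM in SAS leaves. Its levels in both organs were near mirror images, and its interaction was -7.56 ± 0.44 log2 (edgeR adjusted p = 5.67e-07).

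Laccases, copper oxidases that polymerise monolignols, were higher in root than in leaf in both treatments. Of 12 tested among 104 in the table, 11 were called with root below leaf and 1 above, with 6 leaf-only rises, 4 rises larger in leaf, and medians of 0.58 log2 in root and 3.72 log2 in leaf. Of the 12, 3 passed the leaf filter through SAS libraries alone, so their rise in leaf was built into their inclusion. Their sum was 11385 ± 2278 and 13318 ± 1269 CPM in CK and SAS roots and 87.9 ± 15.3 and 608 ± 262 CPM in CK and SAS leaves. A laccase gene (Gh_A05G2115) had 379, 828 and 865 CPM in CK roots and 419, 761 and 670 CPM in SAS roots, which overlapped, and 1.64, 0.713 and 2.60 CPM in CK leaves and 29.9, 55.1 and 24.6 CPM in SAS leaves, which did not. The 12 tested genes share the description laccase 14, so reads may be split between close copies. The root change was -0.16 log2 with a 95% interval from -1.16 to 0.83, and the interaction was -4.63 ± 0.69 log2 (edgeR adjusted p = 2.29e-04).

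Phenylpropanoid and monolignol genes, which supply lignin precursors, had 39 of 65 tested members called with root below leaf and 12 above (78.5%). The opposite responses were 10 down in root and up in leaf, which held under all 4 scalings, and 2 up in root, of which 0 held. The enzyme 4-coumarate:CoA ligase 2 (Gh_A10G0456), at the branch into lignin and flavonoids, had 36.1, 36.7 and 33.8 CPM in CK roots and 15, 13.7 and 11.4 CPM in SAS roots, with 4.06, 6.65 and 7.63 CPM in CK leaves and 41.4, 53.9 and 42.9 CPM in SAS leaves. Cinnamyl alcohol dehydrogenase 5 (Gh_A12G0193), which makes the monolignols, had 117, 126 and 161 CPM in CK roots and 43.2, 40.5 and 39.7 CPM in SAS roots, with 30.4, 38.2 and 42.4 CPM in CK leaves and 160, 166 and 136 CPM in SAS leaves. Both fell in root and rose in leaf without overlap, with interactions of -4.32 ± 0.30 and -3.77 ± 0.24 log2 (edgeR adjusted p = 1.70e-06 and 1.04e-06). The sum over the 65 was lower in SAS than in CK in both organs, at 14536 ± 153 and 8340 ± 763 CPM in CK and SAS leaves and 2904 ± 278 and 1967 ± 183 CPM in CK and SAS roots. Of the 65, 7 passed the leaf filter through SAS libraries alone.

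Flavonoid synthesis genes, of a branch of the same route, mostly fell in both organs. Of 28 tested, 17 fell in root and 22 in leaf, and 8 (28.6%) were called for the interaction, below the 47.6% of all genes. Their sum was 287 ± 75.1 and 172 ± 47.2 CPM in CK and SAS roots and 26236 ± 1334 and 7185 ± 2204 CPM in CK and SAS leaves.

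NADPH oxidases, the plasma membrane enzymes that release superoxide, had 9 of 10 tested genes that rose in leaf and 4 that rose in root. Of the 10, 2 passed the leaf filter through SAS libraries alone, and the median interaction of -0.86 log2 was -0.46 log2 without genes that passed through 1 group alone and -0.43 log2 with an FPKM of at least 5. Of the 10, 5 were leaf-only rises and 1 was called in the other direction (60%), although the summed level was higher in root, 598 ± 81.6 and 1890 ± 13.8 CPM in CK and SAS roots against 113 ± 13.0 and 468 ± 83.0 CPM in CK and SAS leaves. Respiratory burst oxidase homolog B (Gh_D11G2743) had 53.5, 35.7 and 52.2 CPM in CK roots and 82.7, 33.1 and 68.0 CPM in SAS roots, which overlapped. In leaves it had 0.505, 0.163 and 0.451 CPM in CK and 28.6, 41.0 and 21.7 CPM in SAS, and the leaf filter was passed through SAS alone. The root interval, -0.40 to 1.16 log2, extended past 1, and the interaction was -5.98 ± 0.58 log2 (edgeR adjusted p = 1.34e-05). The other gene of this description, Gh_A11G2426, was a leaf-only rise too.

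Other genes with high levels in root rose from low levels in SAS leaves. Expansin-like B1 (Gh_D08G1777), from a family of wall-loosening proteins, had 1547, 1525 and 1748 CPM in CK roots and 2078, 1604 and 1712 CPM in SAS roots, with 4.60, 2.93 and 5.42 CPM in CK leaves and 82.9, 168 and 96.0 CPM in SAS leaves. Its root change was 0.16 log2 with a 95% interval from -0.50 to 0.82, and its interaction -4.58 ± 0.45 log2 (edgeR adjusted p = 1.44e-05). A terpene synthase of the group described as terpene synthase 21 (Gh_D01G1963) had 545, 788 and 993 CPM in CK roots and 333, 276 and 244 CPM in SAS roots, with 3.95, 3.70 and 5.70 CPM in CK leaves and 150, 438 and 118 CPM in SAS leaves, the highest in SAS leaf library 2. In the list of mevalonate route and terpene synthases, enzymes that in cotton lead to gossypol and related defence compounds, 21 of 52 were called below and 9 above (57.7%), with 6 opposite falls in root and 9 leaf-only rises, and 28 below and 6 above under library totals. All 75 root markers in the table summed to 182 to 228 CPM in SAS leaves against 124 to 136 CPM in CK leaves and 944 to 2214 CPM in SAS roots. Single markers differed. In CK and SAS leaves LJRHL1-like 1 (Gh_D06G1019) had 34.1 and 48.4 CPM and root hair specific 19 (Gh_D03G0246) 3.92 and 12.6 CPM. The phosphate transporter 1;7 genes, the highest markers in CK roots, had 1.59 and 2.23 CPM (Gh_A09G0566) and 0.494 and 0.376 CPM (Gh_D09G0567) there.

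Osmotin, thaumatin, chitinase and glucanase genes, which encode defence proteins, had 24 of 55 called with root below leaf and 7 above (56.4%), with 11 root-only falls and 7 leaf-only rises, and 33 below and 2 above under library totals. Lipid-transfer proteins had 13 of 31 below and 6 above (61.3%), and their CK root sum of 942 ± 1307 CPM had a spread wider than its mean. Of the 31, 5 passed the root filter through CK libraries alone. Fermentation and low-oxygen genes had 7 of 30 above and 9 below (53.3%), with 6 leaf-only rises, and expansins and xyloglucan endotransglucosylases 8 of 40 above and 7 below (37.5%). Under library totals the former had 3 above and 13 below and the latter 5 above and 15 below.

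**Figure D3:**
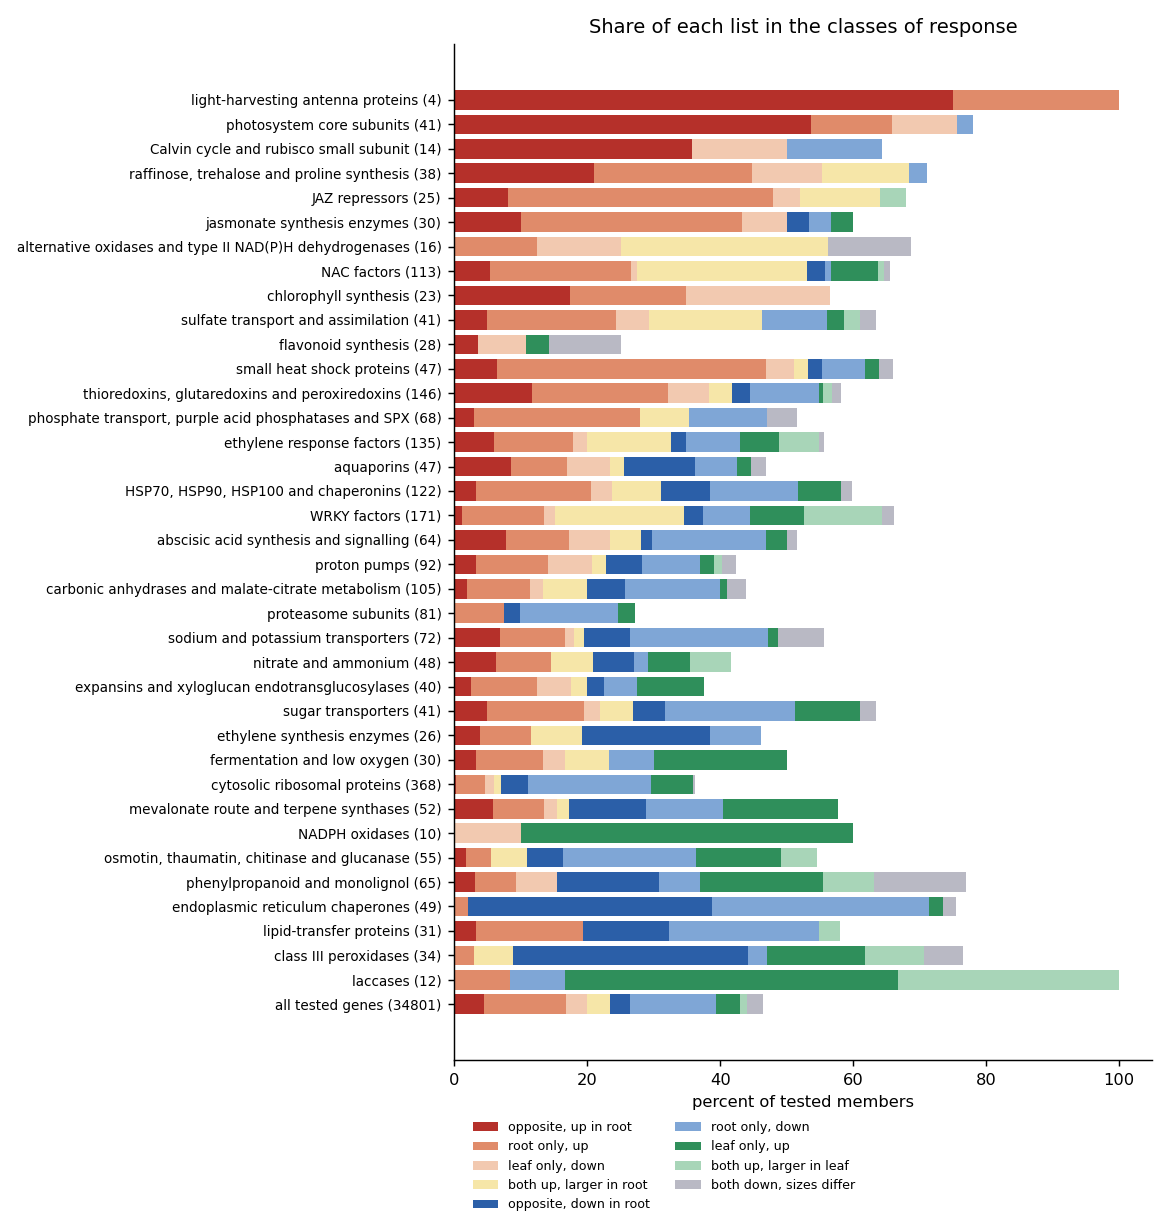
Percent of the tested members of each gene list (x axis) in each class of response, with the number of tested members in brackets and all 34801 tested genes in the lowest bar. The part of a bar up to 100% that is not drawn is members without a called interaction or called in neither organ. Photosystem core subunits are mostly opposite with the rise in root (22 of 41), and endoplasmic reticulum chaperones opposite with the fall in root (18 of 49) or root-only falls (16 of 49).

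Transcripts of chaperones of the endoplasmic reticulum, the compartment that folds secreted proteins, mostly fell in root, and in leaf more of them rose than fell. Of 49 endoplasmic reticulum chaperone genes tested, among them BiP, calreticulin, calnexin and protein disulfide isomerases, 36 were called with root below leaf and 1 above (75.5%). In root 37 fell and 2 rose, and in leaf 20 rose, 4 fell and 25 were not called. The 18 opposite genes all fell in root and rose in leaf and held that class under all 4 scalings, and 16 were root-only falls. Of the 49, 6 passed the root filter through CK libraries alone, so that a fall in root was built into their inclusion, and 33 of the other 43 were called below and 1 above when genes that passed through 1 group alone were left out. The sum over the 49 went from 4622 ± 683 to 1436 ± 235 CPM in root and from 2784 ± 109 to 3975 ± 505 CPM in leaf. A gene described as PDI-like 1-2 (Gh_D01G1856), a protein disulfide isomerase, had 238, 328 and 333 CPM in CK roots and 16, 20.5 and 24.8 CPM in SAS roots, with 15.9, 16.5 and 18.4 CPM in CK leaves and 52.7, 61.6 and 40.9 CPM in SAS leaves. SAS roots thus held less of it than SAS leaves, the reverse of CK, and the interaction was -5.49 ± 0.31 log2 (edgeR adjusted p = 4.98e-07).

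Other chaperone lists were called in both directions, and their balance depended on the scaling. Small heat shock proteins, which bind unfolding proteins, had 25 of 47 called with root above leaf and 6 below (66.0%), with 19 root-only rises and sums of 691 ± 13.6 and 2318 ± 237 CPM in CK and SAS roots and 854 ± 13.5 and 801 ± 26 CPM in CK and SAS leaves. Of the 47, 5 passed the root filter through SAS libraries alone. The median interaction of 0.71 log2 was 0.02 log2 with library totals alone, with 19 called above and 14 below, and -0.04 log2 with limma on log2(FPKM + 0.1). Less the median over all tested genes it was 0.74 log2 both on the TMM scale and with library totals. One member, Gh_A08G1442, had 0.386, 0.329 and 0.408 CPM in CK roots and 56.8, 96.5 and 90.8 CPM in SAS roots, but 0.920, 0.668 and 0.631 CPM in CK leaves and 0.400, 0.248 and 0.508 CPM in SAS leaves. Its interaction was 8.68 ± 0.41 log2 (edgeR adjusted p = 2.37e-07), and it entered the root filter through SAS libraries alone. The larger HSP70, HSP90, HSP100 and chaperonin list had 38 of 122 above and 35 below (59.8%), with a median interaction of 0.01 log2. Its counts were 23 above and 59 below, and its median -0.69 log2, with library totals alone, where the median over all tested genes was -0.72 log2.

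Ribosomal and proteasome genes were called less often than all genes on the TMM scale, in numbers that depended on the scaling. Of 368 cytosolic ribosomal protein genes tested, 112 were called with root below leaf and 26 above (37.5%, against 47.6% of all genes), with medians of -0.22 log2 in root and 0.13 log2 in leaf. With library totals alone 274 were called below and 10 above (77.2%, against 61.2% of all genes), so that the list lay under the share of all genes on the TMM scale and over it on the other. On the TMM scale there were 68 root-only falls, 23 leaf-only rises and 15 opposite falls in root. The summed level of the 368 was higher in SAS than in CK in both organs on that scale, 8489 ± 170 against 6913 ± 791 CPM in root and 8136 ± 142 against 7510 ± 144 CPM in leaf, which differs in sign from the root median. Proteasome subunits, of the complex that degrades tagged proteins, had 16 of 81 below and 6 above (27.2%, against 47.6% of all genes), and 55 below and 1 above with library totals alone. On the TMM scale 23 rose in leaf and 2 fell there.

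Sulfate transport and assimilation, the route from sulfate to cysteine, had 20 of 41 called with root above leaf and 6 below (63.4%), with medians of 1.32 log2 in root and 0.26 log2 in leaf. The counts were 13 above and 10 below with library totals alone. Serine acetyltransferase 2;2 (Gh_A13G1132), which makes the carbon skeleton of cysteine, had 0.557, 0.251 and 0.327 CPM in CK roots and 35.7, 51.8 and 56.1 CPM in SAS roots, with 2.40, 2.88 and 2.61 CPM in CK leaves and 8.23, 8.87 and 8.01 CPM in SAS leaves. It rose in both organs, more in root, with an interaction of 5.32 ± 0.34 log2 (edgeR adjusted p = 1.08e-06). A STAS domain sulfate transporter gene (Gh_A05G1971) had 0.172, 0.406 and 0.429 CPM in CK roots and 18.4, 17.8 and 13.7 CPM in SAS roots, with 4.55, 5.81 and 5.48 CPM in CK leaves and 1.32, 0.298 and 0.899 CPM in SAS leaves, so that it was opposite, at 8.26 ± 0.63 log2 (edgeR adjusted p = 2.95e-06). Both genes passed the root filter through SAS libraries alone.

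Phosphate genes, meaning transporters, secreted purple acid phosphatases and SPX sensors of phosphate status, had 24 of 68 called with root above leaf and 11 below (51.5%, against 47.6% of all genes), with 17 root-only rises and 8 root-only falls. Their root sum was 2318 ± 429 CPM in CK and 6275 ± 2787 CPM in SAS, a wide spread, and their leaf sum 1276 ± 20 and 1266 ± 104 CPM. The median interaction of this list, 0.42 log2, was -0.27 log2 with library totals alone. Less the median over all tested genes it was 0.45 log2 on both scales. Nitrate and ammonium genes had 10 of 48 above and 11 below (43.8%), near the share of all genes. Under library totals 9 were above and 24 below (18.75% and 50%, against 12.5% and 48.7% of all genes).

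Sodium and potassium transporters had 14 of 72 called with root above leaf and 26 below (55.6%), with 15 root-only falls, 7 root-only rises and 5 opposite genes each way, and 7 above and 37 below under library totals. Of the 72, 11 passed the root filter through CK libraries alone. K+ uptake transporter 3 (Gh_D04G0700), a potassium importer, had 126, 106 and 103 CPM in CK roots and 62.7, 64.6 and 58.7 CPM in SAS roots, with 77.7, 73.8 and 69.6 CPM in CK leaves and 106, 120 and 115 CPM in SAS leaves. CK roots held more of it than CK leaves and SAS roots less than SAS leaves, and the interaction was -1.48 ± 0.18 log2 (edgeR adjusted p = 5.07e-05). Of 4 tested genes with this description, 3 were opposite in the same direction.

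Proton pumps, which set the gradient across the plasma membrane and the vacuole, had 22 of 92 called with root above leaf and 18 below (43.5%, near the 47.6% of all genes), with medians of -0.16 log2 in root and -0.12 log2 in leaf. Under library totals 10 were above and 47 below (10.87% and 51.09%, against 12.5% and 48.7% of all genes). Carbonic anhydrases, which convert CO2 and bicarbonate, and genes of malate and citrate metabolism had 21 of 105 above and 25 below (43.8%), also near the 47.6% of all genes. Under library totals 10 of the 105 were above and 58 below (9.52% and 55.2%, against 12.5% and 48.7% of all genes). Within that list single genes moved far. Beta carbonic anhydrase 5 (Gh_A05G1879) had 3.88, 2.61 and 3.78 CPM in CK roots and 129, 184 and 155 CPM in SAS roots, but 69.0, 54.8 and 46.4 CPM in CK leaves and 40.1, 60.7 and 54.1 CPM in SAS leaves, which overlapped. The root rise was 5.51 ± 0.26 log2, the leaf change was -0.14 log2 with a 95% interval from -0.60 to 0.33, and the interaction was 5.65 ± 0.33 log2 (edgeR adjusted p = 5.95e-07). The 3 tested genes of this description were all root-only rises. A phosphoenolpyruvate carboxylase gene (Gh_D08G0371), which fixes bicarbonate into oxaloacetate, was opposite, with 10.4, 16.2 and 15.2 CPM in CK roots and 2.39, 1.26 and 1.41 CPM in SAS roots, and 0.668, 0.282 and 0.255 CPM in CK leaves and 1.20, 1.55 and 1.51 CPM in SAS leaves. Its interaction was -4.88 ± 0.51 log2 (edgeR adjusted p = 2.26e-05).

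Water channels had 12 of 47 called with root above leaf and 11 below (48.9%), near the 47.6% of all genes. Under library totals 9 were above and 17 below (19.15% and 36.17%, against 12.5% and 48.7% of all genes). The aquaporin NOD26-like intrinsic protein 1;2 (Gh_D10G0313) had 1.03, 0.657 and 0.960 CPM in CK roots and 35.3, 65.5 and 62.2 CPM in SAS roots, with 11.3, 14.9 and 16.6 CPM in CK leaves and 10.7, 17.5 and 17.4 CPM in SAS leaves. It was a root-only rise with an interaction of 5.86 ± 0.41 log2 (edgeR adjusted p = 1.99e-06), as was the other gene of that description. Sugar transporters had 11 of 41 above and 15 below (63.4%), and 11 above and 21 below under library totals.

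**Figure D4:**
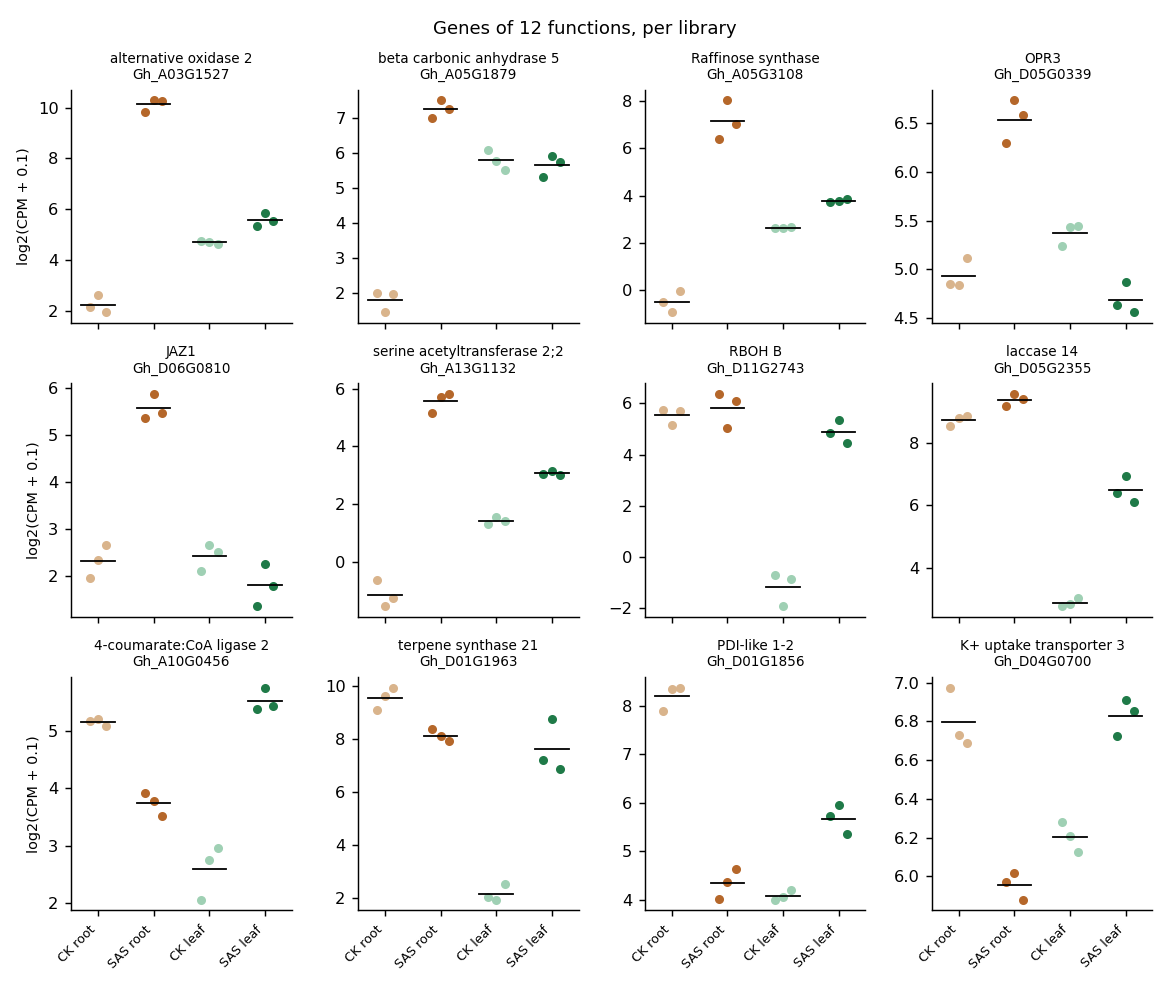
CPM of 12 genes in the 3 libraries of each group, CK and SAS roots and CK and SAS leaves (1 point a library, log axis with 0.1 CPM added). The JAZ gene and the laccase gene drawn here are not the copies whose values are given in the text. Alternative oxidase 2 rises in both organs and more in root, beta carbonic anhydrase 5 rises in root alone, and PDI-like 1-2 falls in root and rises in leaf.

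The genes with the largest fitted opposite responses held several kinds of protein on the side that rose in root. They were taken by a rule, the 8 largest fitted interactions in each direction among described genes with at least 10 CPM in 1 group, 1 gene per description and no overlap between treatments in either organ, so their separation is a condition of the choice. For the 2 with a group at 0 counts, Gh_A03G1038 and Gh_D13G0377, the fitted value that ranked them is no bound, so their place in the order is uncertain. Of the 8 that rose in root, 5 passed the root filter through SAS libraries alone, and of the 8 that rose in leaf, 6 passed the leaf filter through SAS libraries alone, so a rise there was built into their inclusion. The 5 were Gh_D08G2583, Gh_A09G0893, Gh_A03G1038, Gh_A07G1586 and Gh_D10G0362. The 6 were Gh_D13G0377, Gh_D04G1101, Gh_D10G0757, Gh_D04G1835, Gh_D08G2296 and Gh_A12G2286. BTB and TAZ domain protein 1 (Gh_D07G0549), of a family of calmodulin-binding scaffold proteins in Arabidopsis, had 2.17, 3.13 and 3.37 CPM in CK roots and 301, 234 and 219 CPM in SAS roots. In leaves it had 25.8, 28.1 and 25.3 CPM in CK and 1.54, 1.95 and 2.52 CPM in SAS. The order of both organs was thus exchanged by the treatment. The log2 changes were 6.44 ± 0.26 in root and -3.72 ± 0.23 in leaf, and the interaction was 10.16 ± 0.34 (edgeR adjusted p = 3.31e-08). Both tested genes with this description were opposite in the same direction.

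Phytochrome E (Gh_D10G0362), a red-light receptor, had 0.300, 0.0580 and 0.0612 CPM in CK roots and 22.8, 45.6 and 18.4 CPM in SAS roots, with 24.9, 21.8 and 22.4 CPM in CK leaves and 5.79, 2.98 and 7.6 CPM in SAS leaves. In SAS the root libraries lay above the leaf libraries, and the interaction was 9.78 ± 0.74 log2 (edgeR adjusted p = 2.90e-06). A leucine-rich receptor-like kinase gene (Gh_A07G1586) had 0.172, 0.116 and 0.102 CPM in CK roots and 35.0, 61.2 and 57.5 CPM in SAS roots, with 5.94, 3.94 and 4.78 CPM in CK leaves and 2.24, 2 and 1.61 CPM in SAS leaves, and an interaction of 9.93 ± 0.41 log2. A myb-like transcription factor gene (Gh_A13G2133) had 2.06, 1.72 and 6.74 CPM in CK roots and 96.6, 439 and 539 CPM in SAS roots, with 20.9, 19.5 and 21 CPM in CK leaves and 3.70, 4.33 and 4.41 CPM in SAS leaves. Its SAS root library 1 lay well below the other two.

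The other 4 on this side were less even or rested on low CK levels. A gene described as fatty acid/sphingolipid desaturase (Gh_D08G2583) had 0.0429, 0 and 0.122 CPM in CK roots and 4.89, 19.3 and 25.4 CPM in SAS roots, against 36.8, 37.4 and 40.4 CPM in CK leaves and 8.34, 2.48 and 7.92 CPM in SAS leaves. A protein kinase gene (Gh_A09G0893) had 0 to 0.0773 CPM in CK roots and 3.88 to 17.7 CPM in SAS roots, and fell in leaf by 1.64 ± 0.52 log2. An Ntn hydrolase gene (Gh_A06G0183) had 1.42, 7.56 and 4.70 CPM in CK roots and 324, 45.9 and 49.4 CPM in SAS roots, so that SAS root library 1 was far above the others, and it fell in leaf from 78.9 ± 4.25 to 2.53 ± 1.30 CPM. The gene described as related to inorganic carbon transport (Gh_A03G1038) was at 0 counts in the 3 CK root libraries and at 1.72, 1.26 and 1.64 CPM in SAS roots, with 24.5, 21.8 and 20.7 CPM in CK leaves and 13.0, 11.7 and 14.9 CPM in SAS leaves. With a floor of 3 counts per library its root rise was at least 4.66 on the log2 scale, and its leaf change was -0.76 ± 0.16 log2.

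The side that fell in root and rose in leaf also held several kinds of protein. A dirigent-like protein gene (Gh_D03G0709), from a family that guides the coupling of monolignols, had 14.5, 7.87 and 7.86 CPM in CK roots and 2.51, 3.94 and 1.96 CPM in SAS roots, with 0.631, 0.431 and 0.766 CPM in CK leaves and 106, 119 and 84.0 CPM in SAS leaves. Its interaction was -9.24 ± 0.48 log2 (edgeR adjusted p = 3.68e-07), most of it from the leaf rise of 7.39 ± 0.38 log2. PEP1 receptor 1 (Gh_D08G2296), in Arabidopsis a receptor of a wound-released peptide, had 20.9, 21.3 and 27.3 CPM in CK roots and 3.56, 1.70 and 0.762 CPM in SAS roots, with 0.938, 1.26 and 1.56 CPM in CK leaves and 23.5, 25.5 and 27.6 CPM in SAS leaves, and an interaction of -7.87 ± 0.58 log2 (edgeR adjusted p = 2.43e-06). The CK roots and SAS leaves held similar amounts of it.

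A second class III peroxidase gene (Gh_D04G1101) had 55.9, 7.87 and 4.86 CPM in CK roots and 0.146, 0.259 and 0.146 CPM in SAS roots, with 0.271, 0.609 and 0.616 CPM in CK leaves and 9.21, 10.6 and 10.9 CPM in SAS leaves. CK root library 1 was far above the other CK roots. The gene described as WRKY DNA-binding protein 4 (Gh_D10G0757) had 7.70, 11.8 and 17.4 CPM in CK roots and 2.80, 2.67 and 1.44 CPM in SAS roots, with at most 0.0891 CPM in CK leaves and 4.26, 10.7 and 1.96 CPM in SAS leaves. A cupredoxin gene (Gh_D13G0377), of copper proteins, was at 0 counts in the 3 CK leaf libraries and at 6.75, 5.83 and 4.39 CPM in SAS leaves, a rise of at least 6.88 on the log2 scale with the floor of 3 counts per library. It fell in root by 3.62 ± 0.52 log2. The remaining 3, an ankyrin repeat gene (Gh_D04G1835), a LEA hydroxyproline-rich glycoprotein gene (Gh_A12G2286) and a P-loop nucleoside triphosphate hydrolase gene (Gh_D12G0586), had interactions of -9.71 ± 1.01, -7.70 ± 0.80 and -7.69 ± 0.77 log2. The 16 opposite genes named here held their class under all 4 scalings.

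**Figure D5:**
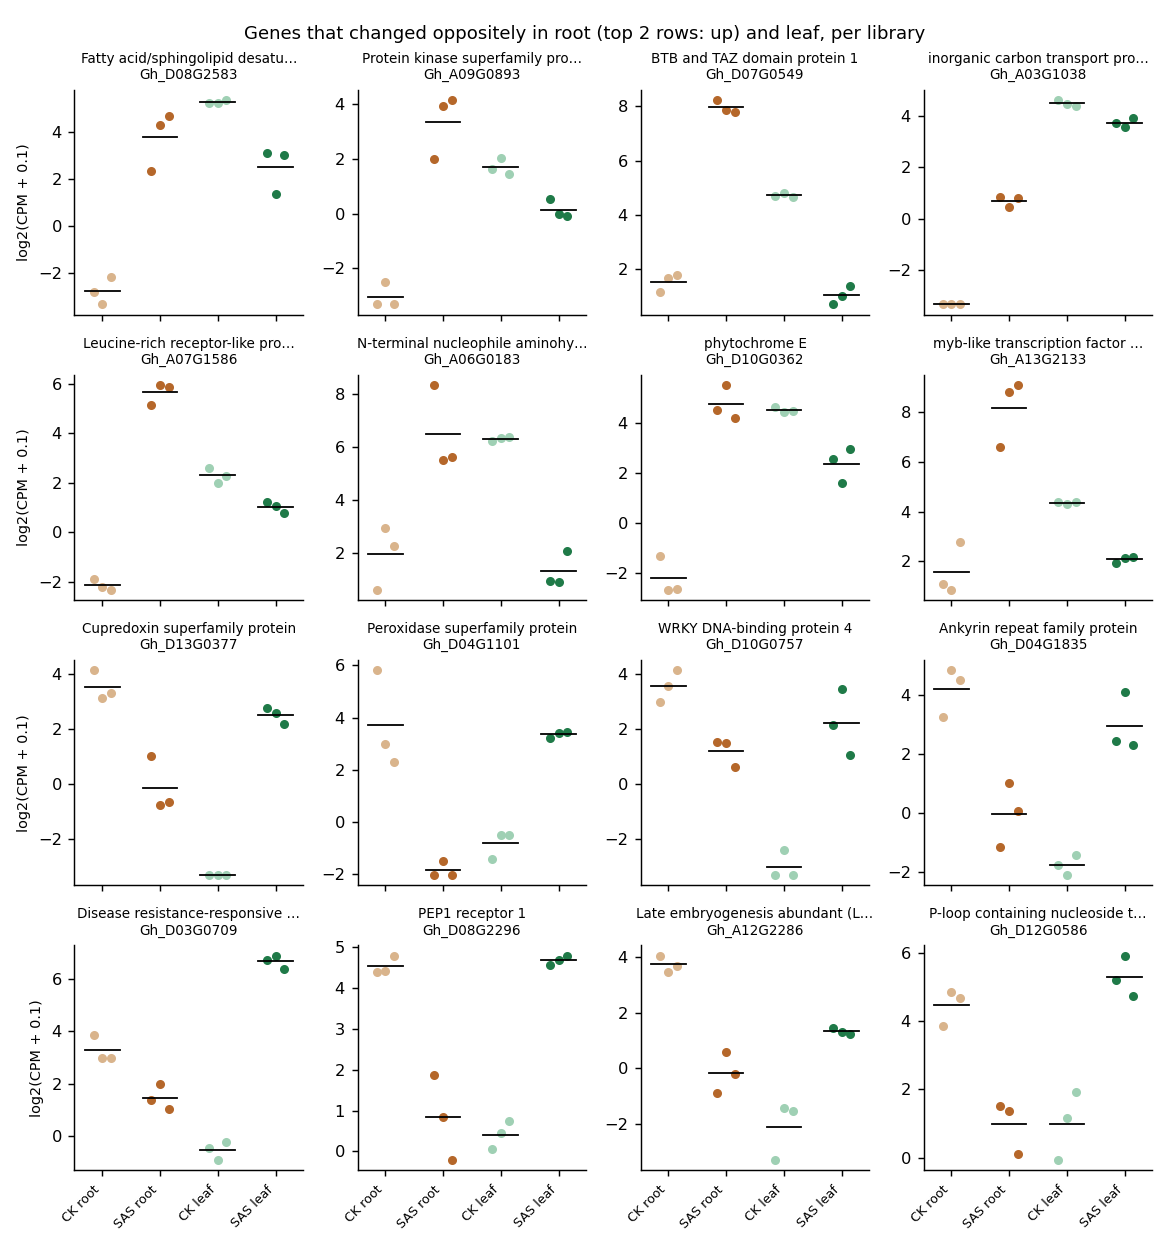
CPM of the 16 genes with the largest fitted opposite responses in the 3 libraries of each group (1 point a library, log axis with 0.1 CPM added). The 8 that rose in root and fell in leaf and the 8 that fell in root and rose in leaf are drawn separately, and in each gene and organ the SAS points lie to 1 side of the CK points, as the rule that chose them required.

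Responses of 1 organ alone, named by the same rule, had other contents. Among root-only rises, a gene described as UDP-glucosyl transferase 85A2 (Gh_D13G0523) was at 0 counts in the 3 CK root libraries and at 23.4, 112 and 134 CPM in SAS roots, a rise of at least 10.52 on the log2 scale with the floor of 3 counts per library. Its leaf libraries held 1.52 to 2.35 CPM in CK and 0.728 to 1.72 CPM in SAS, which overlapped. Ethylene-responsive element binding factor 13 (Gh_A11G0686) had 0, 0.155 and 0 CPM in CK roots and 30.7, 118 and 68.2 CPM in SAS roots, with an interaction of 10.71 ± 1.10 log2. A tyrosine transaminase gene (Gh_D02G1816) had 0.0580 to 0.102 CPM in CK roots and 49.1, 119 and 113 CPM in SAS roots, with an interaction of 10.53 ± 0.66 log2. A subtilisin-like protease gene (Gh_D11G0235) had 0 to 0.116 CPM in CK roots and 52.2, 76.8 and 78.7 CPM in SAS roots, with an interaction of 10.58 ± 0.76 log2. The 4 passed the root filter through SAS libraries alone.

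Among root-only falls, osmotin 34 (Gh_A12G2070), a defence protein of the thaumatin family, had 518, 1119 and 1012 CPM in CK roots and 11.8, 10.5 and 14.7 CPM in SAS roots, with 0.624 to 1.26 CPM in CK leaves and 0.755 to 1.67 CPM in SAS leaves. It fell by 6.16 ± 0.42 log2 in root, and its interaction was -6.53 ± 0.54 log2 (edgeR adjusted p = 4.54e-06). Pathogenesis-related 4 (Gh_D11G2595) fell in root from 23.2 ± 8.11 to 0.755 ± 0.611 CPM. A 2-oxoglutarate-dependent oxygenase gene (Gh_D10G1686) fell in root from 19.6, 2.69 and 8.19 CPM to 0, 1.09 and 0.264 CPM. Its leaf change of 1.77 log2, with a 95% interval from 0.21 to 3.33, missed the adjusted threshold. A lipid-transfer family gene (Gh_D07G0823) had 1127, 4.20 and 20.5 CPM in CK roots and 0.862 to 1.78 CPM in SAS roots. Its interaction was -6.87 log2, and -1.92 log2 without CK root library 1.

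Among leaf-only responses, a second dirigent-like gene (Gh_A02G1023) had 0.126, 0.178 and 0.316 CPM in CK leaves and 56.3, 45 and 27.9 CPM in SAS leaves, with 1.31 to 2.32 CPM in CK roots and 2.04 to 4.52 CPM in SAS roots. Its interaction was -6.85 ± 0.60 log2 (edgeR adjusted p = 6.73e-06). A berberine-bridge family oxidase gene (Gh_D02G0213) had 0 to 0.180 CPM in CK leaves and 28.3, 38.3 and 5.09 CPM in SAS leaves, and overlapped between treatments in root. The other 2 leaf-only rises, a pectin lyase-like gene (Gh_D07G1803) and an oxygenase gene (Gh_D13G1655), left this class under another scaling. Among leaf-only falls, a gibberellin-regulated family gene (Gh_A07G1108) had 264, 226 and 211 CPM in CK leaves and 9.45, 6.88 and 18.8 CPM in SAS leaves, with less than 1 CPM in every root library. Organic cation/carnitine transporter 3 (Gh_D13G1325) fell in leaf from 116 ± 14.4 to 3.14 ± 0.963 CPM, while root libraries ran from 53.6 to 156 CPM in CK and from 19 to 136 CPM in SAS. Its interaction was 4.37 log2, and 2.90 log2 without SAS root library 1. The other 2 leaf-only falls, SKU5 similar 5 (Gh_D05G2420) and a cytochrome P450 gene of family 77 (Gh_D11G1694), had root changes of 1.73 and 1.81 log2 whose 95% intervals, 0.08 to 3.38 and -0.02 to 3.64, allow a large rise in root. Without CK root library 1 their interactions were 6.82 and 6.57 log2 in place of 4.50 and 4.34 log2.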

How the data were processed

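The authors deposited 1 table with a whole-number count and an FPKM value per gene and library, per the file headers, and the submitters' processing notes name HISAT and StringTie. Versions, genome build, strandedness and the treatment of reads shared by copies are not given in the sources used here. Groups came from the labels. The 34801 genes with a deposited FPKM of at least 1 in 3 or more of the 6 libraries of each organ were tested on counts with edgeR 4.0.16 in R 4.3.3 (TMM scaling, 1 mean per group over 12 libraries, quasi-likelihood F test, Benjamini-Hochberg over all tested genes, called under 0.05). The standard error is the log2 change divided by the square root of F. Intervals are 95%. CPM is the count scaled to 1e6 over the total of tested genes times the TMM factor. For a group at 0 counts, 3 counts in each library served as the floor, and its change is a bound that covers counting error only. In simulated data with 34801 genes, only 100 genes were changed 2-fold and 100 genes 4-fold, in SAS roots alone. The interaction test recovered 9 of the former and 74 of the latter. In the deposited data 16580 genes were called, which makes the adjusted threshold less strict than in the simulation. The recovered shares therefore do not measure recovery in these data. A gene without a called interaction may still differ.

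A response was opposite when the interaction and both organs were called with unlike signs, and root-only or leaf-only when the interaction and that organ alone were called. The 57 function lists and 2 organ marker lists were matched on the text of the deposited descriptions. They are given by counts and medians, and the members, lists and tests were chosen with earlier results of these data known. Genes were named by a rule: described, at least 10 CPM in the highest group and called for the interaction, ranked by size of interaction with 1 gene per description and no overlap between treatments in the organ that changed (8 per direction of opposite response, 4 per direction in 1 organ), and in each list up to 2 members per direction by adjusted p. Of the genes the rule gave for lists, a selection is described. Alternatives were RLE and upper-quartile factors, library totals, DESeq2 1.42.0, limma 3.58.1 on log2(FPKM + 1) and log2(FPKM + 0.1), other filters, all 18 libraries, organs fitted apart, glmTreat at 2-fold, a replicate block and leaving out each library. The BCV was 0.263 in root and 0.175 in leaf. Sequences were not used here, since the gene identifiers did not match the reference table.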

Additional observations from a re-analysis of the deposited data

Results flagged for a closer look

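The 16 genes with the largest fitted opposite responses were picked out by the size of edgeR's fitted interaction. A called interaction and no overlap between treatments in either organ were conditions of that choice, so neither is separate support. Most of the 16 passed the filter, in the organ where they rose, through SAS libraries alone. Several rested on low CK levels or on a single outlying library, as given with their levels above. The interaction log2 changes of those that rose in root and fell in leaf were 10.80 for the desaturase gene Gh_D08G2583, 10.35 for the protein kinase gene Gh_A09G0893, 10.16 for BTB and TAZ domain protein 1 (Gh_D07G0549), 9.93 for the receptor-like kinase gene Gh_A07G1586, 9.89 for the Ntn hydrolase gene Gh_A06G0183, 9.78 for phytochrome E (Gh_D10G0362) and 8.97 for the myb-like gene Gh_A13G2133. For the inorganic carbon transport related gene Gh_A03G1038, at 0 counts in CK roots, the difference was at least 5.41 with the floor of 3 counts per library.

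Among those that fell in root and rose in leaf, the values were -11.28 for the peroxidase gene Gh_D04G1101, -9.80 for the WRKY gene Gh_D10G0757, -9.71 for the ankyrin repeat gene Gh_D04G1835, -9.24 for the dirigent-like gene Gh_D03G0709, -7.87 for PEP1 receptor 1 (Gh_D08G2296), -7.70 for the LEA glycoprotein gene Gh_A12G2286 and -7.69 for the P-loop hydrolase gene Gh_D12G0586. For the cupredoxin gene Gh_D13G0377, at 0 counts in CK leaves, the difference with the same floor was -10.50, a bound. Groups of 3 libraries are too small for a test of single outlying libraries.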

How the results depend on the processing

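The effect of scaling, and of limma on FPKM, on the balance of directions is given with the counts. Of the 4 counts, interaction calls were 10578 of 19455 genes with an FPKM of at least 5 and 6072 of 34801 when a difference of over 2-fold was asked (glmTreat). Opposite responses were 4398 (686 up in root) and 4007 (605 up in root) with limma on log2(FPKM + 1) and log2(FPKM + 0.1), and 208 with glmTreat asked of each change. Root-only responses were 5062 and 3751, and leaf-only responses 1480 and 742, with that filter, which tests fewer genes, and with glmTreat. Leaving out each library in turn gave 14541 to 16946 interaction calls, 1812 to 2940 opposite, 7872 to 9815 root-only and 1580 to 2663 leaf-only responses, the lowest leaf-only count without SAS leaf library 2. DESeq2 gave 17906 interaction calls and 3043 opposite responses, all 18 libraries 17167 and 2661, and no filter 18348 and 2333 of 63542 genes. Organs fitted apart gave 2890 opposite responses, 1482 up and 1408 down in root, against 1546 up and 1035 down in the main fit. Root-only responses were then 6875 and leaf-only responses 3080, against 8764 and 2372 in the main fit. Asking also for an FPKM of at least 1 in a library of each group, an alternative added after seeing the data, left 30948 genes with 14486 calls, 2300 opposite, 7675 root-only and 2174 leaf-only responses.

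The median interaction of thioredoxins, glutaredoxins and peroxiredoxins was -0.083 log2 with library totals, -0.13 with limma on log2(FPKM + 1) and -0.20 on log2(FPKM + 0.1), and that of small heat shock proteins -0.040 on the latter. Of all 57 lists, 16 changed the sign of their median under another scaling. The cause was not tested. Among the named genes, Gh_D07G0823 lost its interaction call with both limma fits and with the replicate block.

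Replicate numbers did not pair the samples: over 18 pairs of same-numbered libraries the correlation of deviations ran from -0.18 to 0.16, and 2 pairs exceeded 0.1. With the replicate block the counts were 15889 interaction calls, 2450 opposite, 8536 root-only and 2264 leaf-only responses. Low counts limit the genes whose CK level lay under 1 CPM in an organ, and 56 tested genes had a group at 0 counts.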

Other observations

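The typical size of the root to leaf difference was larger in SAS than in CK, while the side it lay on depended on the scaling. Over the tested genes the median size of the log2 root to leaf ratio of CPM + 1 was 0.61 in CK and 0.83 in SAS. Genes at least 4-fold higher in root than in leaf numbered 2448 in CK and 3719 in SAS, while those at least 4-fold higher in leaf numbered 2521 and 2515. With library totals alone, an alternative added after seeing the data, the medians were 0.65 and 1.10, and the counts 2165 and 2130 higher in root and 3095 and 5695 higher in leaf. The difference between treatments in these values was not tested. Between subgenomes the shares were close: of 14701 tested genes on A chromosomes 47.9% were called for the interaction and 7.32% were opposite, and of 16048 on D chromosomes 48.01% and 7.57%.

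The pathway names deposited with the genes gave further groups, some of which overlap the function lists. The background over all tested genes was 24.3% above, 23.3% below and 4.44% opposite with the rise in root. Among 128 pathways with enough tested genes, N-glycan biosynthesis, which builds the sugar chains of secreted proteins, had 71 of 139 genes called with the root change below the leaf change and 9 above (57.6% called, against 47.6% of all genes), with medians of -0.63 log2 in root and 0.12 log2 in leaf. Of the 139, 19 passed the root filter through CK libraries alone, so that a fall in root was built into their inclusion. Photosynthesis had 61 of 96 above and 10 below (74.0%). Its opposite genes were 36 up in root and 0 down, and 12 of the 36 held that class under all 4 scalings. Porphyrin and chlorophyll metabolism had 71 of 177 above and 33 below (58.8%). Its opposite genes were 22 up in root and 6 down, of which 13 and 6 held their class under all 4 scalings. Circadian rhythm had 112 of 316 above and 55 below (52.9%), with 36 opposite genes up in root and 4 down, of which 18 and 4 held under all 4 scalings. Vitamin B6 metabolism had 43 genes above and 20 below (62.4%), with medians of 0.75 log2 in root and -0.14 log2 in leaf. These pathways were chosen after their values were seen, members overlap between pathways, and no set was tested.

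The 20 function lists not described above had median interactions from -0.30 to 0.98 log2, with 28.8% to 68.4% of their tested members called, and 11 of the 20 changed the sign of their median under another scaling.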
